A study of Mus musculus with 2 samples.

Results

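Voltage-gated sodium channels carry the inward current of the muscle action potential, and the chloride channel ClC-1 carries most of the resting chloride current that steadies the fibre membrane between action potentials. In adult skeletal muscle the pore is the alpha subunit Nav1.4, encoded by *Scn4a*, and small beta subunits with a single membrane span adjust its gating and its level at the surface. The genes described here are *Scn4a*, the beta subunit genes *Scn2b*, *Scn3b* and *Scn4b*, and *Clcn1*, which encodes ClC-1. Of these genes, *Scn3b* was the one called, with 3.68-fold more signal in *Gde5* skKO than in WT muscle on one array and 2.71-fold more on the other. That call rests on 1 of its 3 probes, and the mean fold of that probe was as low as 2.01 when the arrays were processed in other ways. With all 3 probes averaged, the mean log2 ratio was 0.61 and *Scn3b* was not called. *Scn4a* differed by at most 0.10 on the log2 scale on either array. The ratios of *Scn2b* and of the brighter *Clcn1* probe had opposite signs on the 2 arrays.

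The 5 genes were chosen by a rule written with the log2 ratios of these same arrays in view, so every ratio below is a description. The software's p-values and limma's test are used to state which genes passed a call rule, and support nothing about the genes so chosen. Their probes were found by gene name, older names included. In all, 7 probes for 4 of the 5 genes were found, out of 27573 genes with a probe, and 4 of those probes, 1 for each gene, passed the filter on low signal. No probe for *Scn4b* was found by its name, its older names or its accession, so *Scn4b* was not analysed here.

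RNA came from the gastrocnemius (GAS) muscle of male mice at 15 weeks of age on a normal diet, WT or deficient in GDE5 (Gpcpd1) in skeletal muscle (*Gde5* skKO). Per the study's methods, the deletion removes a floxed exon of *Gde5* through HSA-Cre. This Cre recombinase is driven by the human skeletal actin promoter in muscle fibres, so other cells of the muscle keep the gene. Those methods name floxed littermates (*Gde5* flox/flox) as the controls in the force, glucose tolerance and fasting experiments. For the arrays they call the controls WT. WT and *Gde5* skKO RNA competed for the same spots on 2 two-colour arrays, with Cy5 on *Gde5* skKO RNA on array 1 and on WT RNA on array 2. Per the labels there were 5 mice per genotype. Whether their RNA was pooled, whether both arrays held one RNA, and whether the mice were fasted or given glucose is not stated there. The ratios were therefore not tested over mice. The paper describes array comparisons of muscle after a glucose injection and with fasting, and does not say which of them these arrays hold. Nor does it say whether both arrays hold the same comparison. If they do not, feeding state differs between the arrays together with the dye, and the 2 cannot be told apart.

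Each value below is either a processed signal, in arbitrary units after background subtraction and dye correction, or a log2 ratio of *Gde5* skKO over WT with the error that the scanner software's model gives for that spot. A gene was represented by its brightest probe. It was called when the software's p-value was under 0.05 on both arrays, the ratios had the same direction, and on each array 1 channel or both showed the probe well above background. Of 13572 genes that passed this filter, 1.58% were called higher and 1.73% were called lower in *Gde5* skKO muscle. These were 215 and 235 genes. With the ratios left unturned, so that a call follows the dye and not the genotype, 214 genes (1.58%) were called. That last count takes both directions together. The median log2 ratio over these genes was 0.01 on array 1 and 0.02 on array 2. The targeted gene *Gpcpd1* had 3 probes with mean log2 ratios of -2.93, -2.97 and -3.18, while its remaining probe, the brightest of them, had -0.26. That probe stands for the gene, with -0.05 on array 1 and -0.47 on array 2. The large fall of the other 3 probes thus does not enter the call of *Gpcpd1*, a limit of calling a gene by its brightest probe. Because whole muscle was used, fewer cells of a type and less RNA per cell cannot be told apart.

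*Scn4a* encodes the pore subunit itself, and mutations in it cause periodic paralysis and myotonia. Its single probe lies at chr11:106135497-106135556 on the minus strand (mm8, the build of the array annotation). The signals were 710 for *Gde5* skKO and 705 for WT on array 1, and 798 and 746 on array 2, well above background in all 4 channels. All 4 values thus lie close together, and the genotypes overlap. The log2 ratio was 0.01 ± 0.21 on array 1 and 0.10 ± 0.21 on array 2, so both were smaller than their own errors. *Scn4a* was not called and stood 5702nd from the highest mean ratio among 13572 genes.

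*Scn3b* encodes the beta3 subunit, which binds the alpha subunit without a covalent link and is best known from neurons and heart. Its probe 3, at chr9:40042119-40042178 on the plus strand, gave signals of 675 for *Gde5* skKO and 183 for WT on array 1. On array 2 the same probe gave 583 and 215. All 4 channels were well above background, and both *Gde5* skKO signals lie above both WT signals. Before any subtraction, the mean spot intensity on array 1 was 304 for *Gde5* skKO and 88.4 for WT, each over a local background of 38. On array 2 these intensities were 178 over 35.5 and 114 over 38. The WT spot was therefore 2.33 times its surroundings on array 1 and 2.99 times on array 2, which leaves the WT side of the ratio dependent on how background is taken off.

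The log2 ratio of this probe was 1.88 ± 0.27 on array 1 and 1.44 ± 0.25 on array 2. The difference between the arrays, 0.44, was close to the error of 0.37 that the model gives for it. The part of the ratio that changes sign with the dye swap, 0.22, was smaller than the part that keeps its sign, 1.66. Each dye orientation has a single array, so the first part holds any other difference between the arrays as well as dye. *Scn3b* was thus called higher, with the 5th highest mean log2 ratio of the 13572 genes. The size of the change depended on the processing. The mean of 1.66, a 3.16-fold difference, fell to 1.01 (2.01-fold) with the normexp background model and loess in limma, and to 1.07 (2.09-fold) with loess and no background correction. Its place among all genes was then 6th and 5th.

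**Figure D1:**
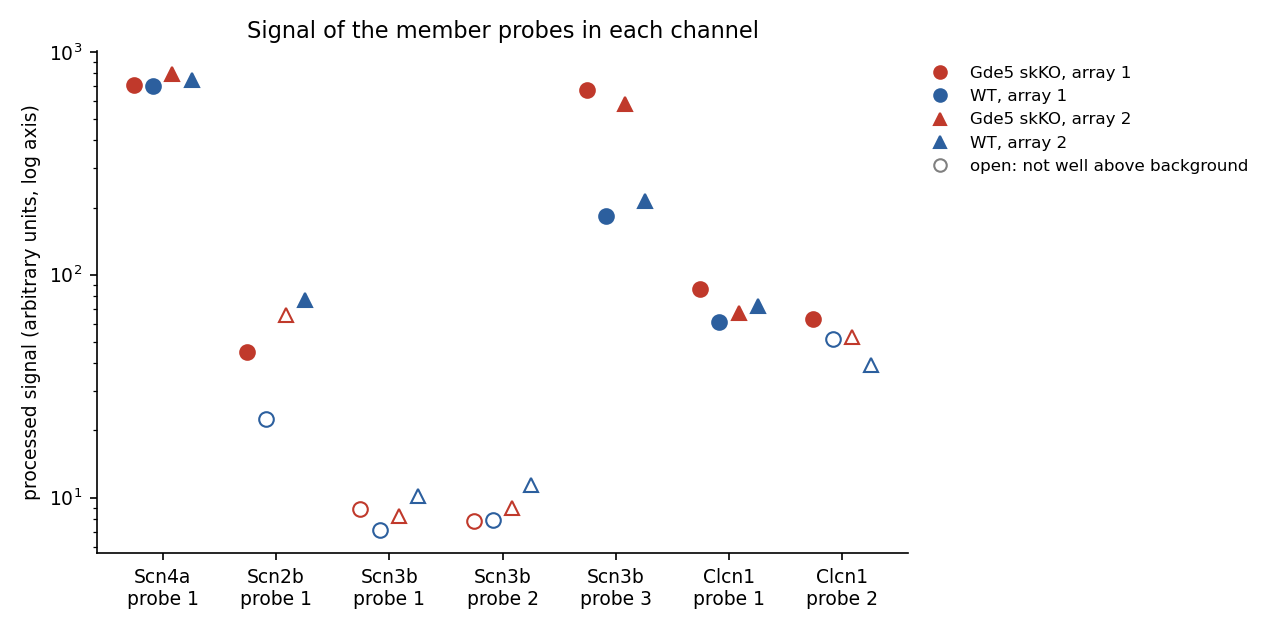
Processed signal (arbitrary units, log axis) of the 7 probes in each channel of both arrays, red for Gde5 skKO, blue for WT, circles for array 1, triangles for array 2, open where the channel was not well above background. For Scn3b probe 3 the red signals (675 and 583) lie above the blue ones (183 and 215), while for Scn4a all 4 lie between 705 and 798. Heights of different probes are not comparable, because probes differ in how well they bind.

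Both of the other *Scn3b* probes gave no signal that could be measured. Probe 1 lies at chr9:40033049-40033108 and probe 2 at chr9:40041369-40041428, on the same strand and ahead of probe 3, with 8260 bases between probes 1 and 2 and 690 bases between probes 2 and 3. The signals of probe 1 ran from 7.13 to 10.2 and those of probe 2 from 7.82 to 11.4, with none of the 4 channels well above background for either. Their log2 ratios, 0.31 and 0 for probe 1 and 0 on both arrays for probe 2, therefore carry no information on the direction of the gene. The array annotation describes probes 1 and 3 as transcript variant 1 and probe 2 as variant 2, and yet lists the same RefSeq transcripts for all 3. The call for *Scn3b* thus rests on 1 probe with 1 spot per array. With the ratios of all 3 probes averaged, the gene's mean log2 ratio was 0.61 and it was not called.

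Around *Scn3b*, the probes of other genes within 100 kb were read out after the values of *Scn3b* were known. There were 7 such probes, 4 of them passed the filter, and none was called. The nearest gene was *Gramd1b*, which codes for a sterol transfer protein and whose probes lie on the opposite strand, the first 1674 bases past *Scn3b* probe 3. Its 3 probes that passed had mean log2 ratios of 0.25, 0.35 and 0.73, positive on both arrays and all below the 1.66 of *Scn3b*. The single *Zfp202* probe that passed, on the far side, had 0.11.

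**Figure D2:**
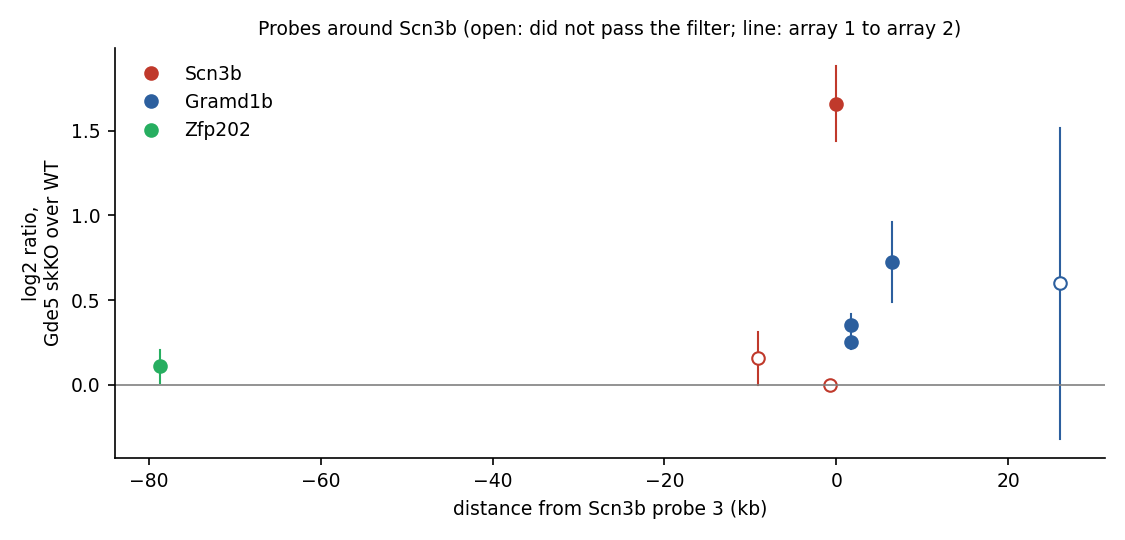
Mean log2 ratio (points) of Scn3b, Gramd1b and Zfp202 probes against their distance in kb from Scn3b probe 3, with lines from the array 1 to the array 2 value and open points for probes that did not pass the filter. Scn3b probe 3 stands at 1.66, and the Gramd1b probes that passed lie between 0.25 and 0.73.

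*Scn2b* encodes beta2, which is tied to the alpha subunit by a disulfide bond. Its probe at chr9:44880857-44880916 on the plus strand was near the detection limit. The signals were 45.2 for *Gde5* skKO and 22.6 for WT on array 1, and 65.6 and 77.4 on array 2. Only the *Gde5* skKO channel on array 1 and the WT channel on array 2 were well above background, and the order of the genotypes changed between the arrays. The log2 ratio was 1.00 ± 0.66 on array 1 and -0.24 ± 0.41 on array 2. The mean of 0.38 was smaller than the part that changes sign with the dye swap, 0.62, and *Scn2b* was not called. In limma the mean was 0.10 with normexp and 0.03 without background correction. Uncorrected spot intensities were between 55.8 and 62.4, at 1.30 to 1.56 times the local background.

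*Clcn1* had 2 probes. ClC-1 works as a dimer with a pore in each subunit, and its loss causes myotonia in mice and people. Probe 1, at chr6:42229963-42230022 on the plus strand, was designed on a complementary DNA that the array annotation describes as disrupted by an ETn transposon. Its signals were 86.5 for *Gde5* skKO and 61.0 for WT on array 1, and 67.0 and 72.7 on array 2, well above background in all 4 channels. The genotypes overlap, since the lower *Gde5* skKO signal lies below the higher WT signal. The log2 ratio was 0.50 ± 0.32 on array 1 and -0.12 ± 0.37 on array 2. The mean was 0.19, against 0.31 for the part that changes sign with the dye swap. *Clcn1* was not called.

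Probe 2 of *Clcn1* is annotated to the regular transcript, and its alignment spans 542 bases (chr6:42242917-42243458), more than the 60 bases that the other member probes cover. The signals were 63.6 for *Gde5* skKO and 51.3 for WT on array 1, and 52.3 and 39.4 on array 2. Only the *Gde5* skKO channel on array 1 was well above background, so the probe did not pass the filter. WT was not well above background on either array, so no fold is given. Its log2 ratios were 0.31 ± 0.37 and 0.41 ± 0.51, each within its error.

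**Figure D3:**
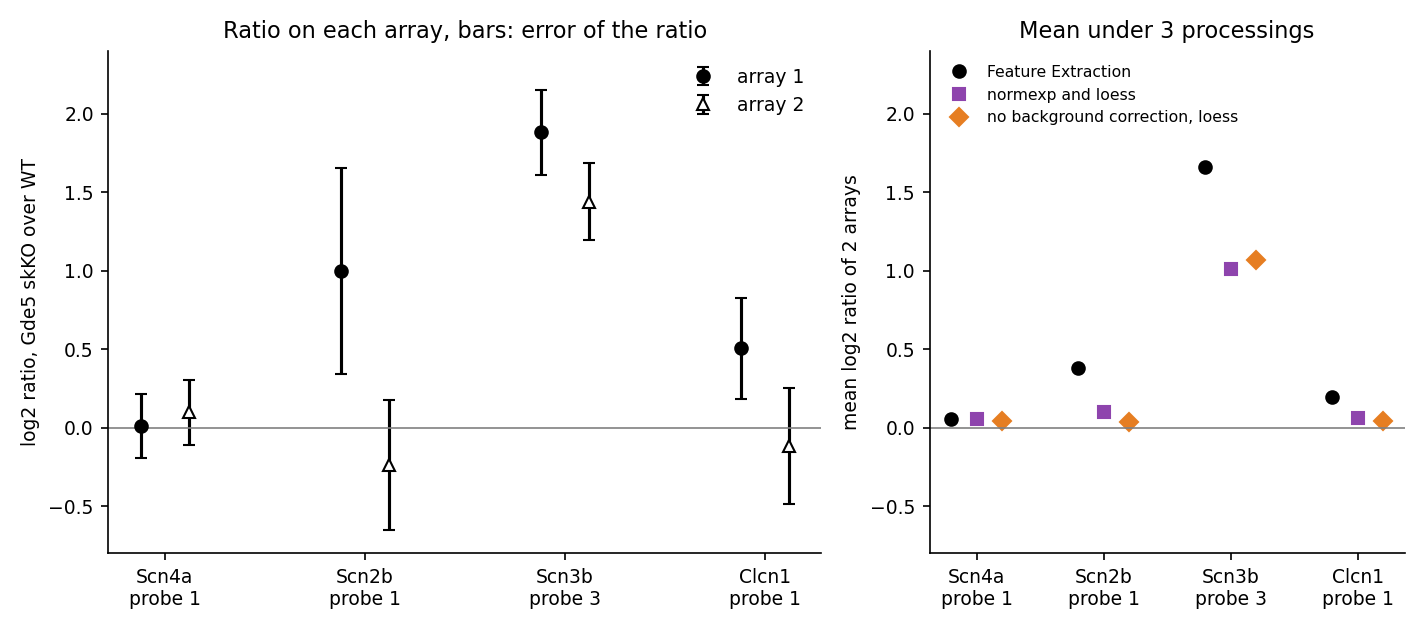
Left, log2 ratio of Gde5 skKO over WT on array 1 (filled) and array 2 (open) for the 4 probes that passed the filter, with the error of each ratio as bars; right, the mean of the 2 arrays under 3 processings. Scn3b probe 3 lies between 1.44 and 1.88 on the arrays and between 1.01 and 1.66 over the processings, and the other probes have an array value within its error of 0.

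Among the genes tested, 12321 had signal in both channels on both arrays. The 3 of these whose pair of ratios lay nearest to that of *Scn3b* were *Myh3*, *Atp1b4* and a transcript that the array names CB590298. *Myh3*, the embryonic myosin heavy chain, had log2 ratios of 1.95 and 1.49, at a distance of 0.09 from *Scn3b*. *Atp1b4*, a muscle protein of the Na,K-ATPase beta family, had 1.85 and 1.63, at a distance of 0.20. The third had 1.36 and 1.22, at a distance of 0.57. Each pair consists of 2 values, so this likeness describes 2 arrays and nothing more.

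**Figure D4:**
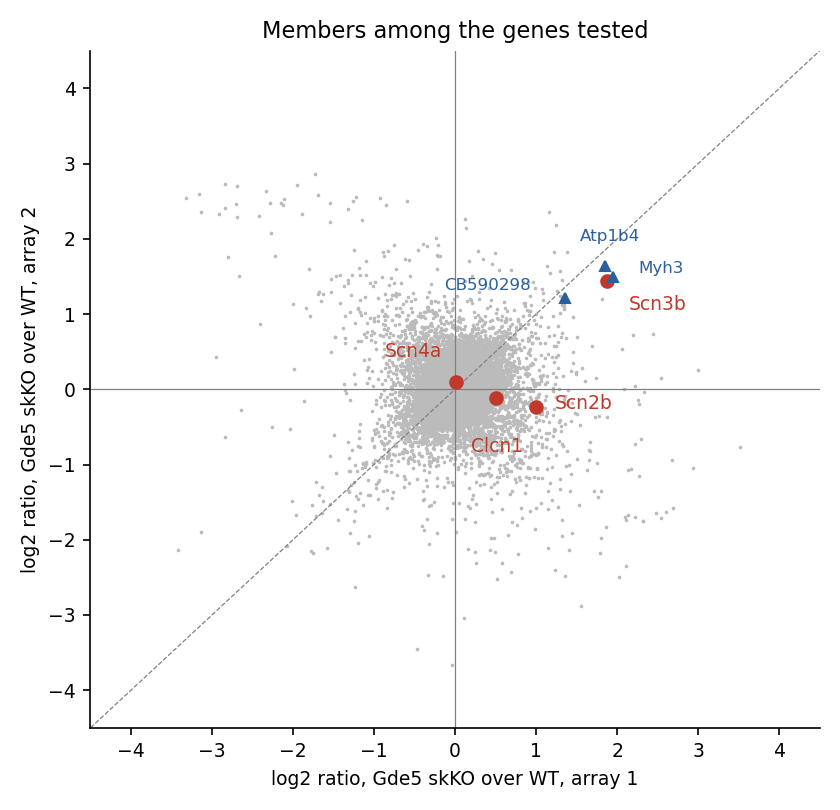
Log2 ratio of Gde5 skKO over WT on array 1 (x axis) and array 2 (y axis) for 13572 genes (grey), the 4 measured members (red) and the 3 genes nearest to Scn3b (blue); the dashed line marks equal ratios. Scn3b lies near the dashed line at 1.88 and 1.44, Scn4a lies by the origin, and Scn2b and Clcn1 lie in the quadrant where the arrays have opposite signs.

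Of the other sodium channel alpha subunits, 8 of 10 had no channel well above background, among them the neuronal *Scn1a*, *Scn3a* and *Scn8a*.

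Of 10 further genes of the CLC family and its accessory subunits, 7 passed the filter and none was called. Their mean log2 ratios ran from -0.51 to 0.09, with a median of -0.08. *Clcn3*, an intracellular chloride-proton exchanger, had -0.35 ± 0.21 and -0.24 ± 0.21. Of 21 partners and regulators of these channels, such as the syntrophins, dystrophin, ankyrins and intracellular fibroblast growth factors, 18 passed and none was called. Their means ran from -0.41 for *Dmd* (dystrophin) to 0.48 for *Fgf11*, with a median of 0.05. Over these genes and the remaining sodium channel genes together, 27 of 42 passed the filter, 0 were called in either direction, and the median was -0.02, beside 0.01 over all genes tested. At the share of all genes called, a list of this length holds few calls or none, so this count does not set these genes apart.

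Marker genes showed the tissue and gave values beside the *Scn3b* ratio. In this paragraph and the next, calls stand beside the 1.58% of all genes tested called higher and the 1.73% called lower. All 10 skeletal muscle fibre markers, such as *Acta1* and *Ckm*, were well above background in every channel, none was called, and their median was 0.00. Of 11 genes that rise in denervated or developing muscle, 9 passed the filter and 4 were called higher: *Myh3* (1.72), *Ankrd1* (1.02), *Chrna1* (0.83), the acetylcholine receptor alpha subunit, and *Ncam1* (0.53). *Myog* (0.10), *Myod1* (0.20) and *Myh8* (-0.16) of the same list were not called, and *Chrnd* had no channel well above background. The summed signal of this list was 54258.5 and 48844.3 in *Gde5* skKO against 50402.9 and 56449 in WT, most of it from *Myh8*. Of 10 slow fibre genes, 3 were called higher, the regulatory light chain *Myl2* (0.84), the troponin *Tnni1* (0.67) and the calsequestrin *Casq2* (0.67), and the median of the list was 0.38.

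Of 12 genes of nerve axons and Schwann cells, 6 passed and none was called. The neurofilament genes *Nefl*, *Nefm* and *Nefh* and the axonal *Prph* had no channel well above background, as did *Pmp2*. The summed signal of those that passed was 6384.6 and 6902.44 in *Gde5* skKO, below 7147.69 and 7388.82 in WT. Of 6 heart genes, 4 passed and 1, *Myh6* (0.53), was called higher, while the atrial genes *Nppa* and *Myl7* had no channel well above background. The summed heart signal was 2796.48 and 2751.97 in *Gde5* skKO against 1898.23 and 1989.85 in WT, most of it from *Myh6*. Of 6 adipocyte genes, 4 were called lower, namely *Cfd* (-0.90), *Retn* (-0.83), *Plin1* (-0.69) and *Adipoq*, which had -0.97 and -1.03 on the 2 arrays, and *Lep* had no channel well above background. The summed adipocyte signal, most of it from *Fabp4*, was 42765 and 40515.8 in *Gde5* skKO against 42869.2 and 44209.7 in WT. The 3 blood genes had a median of -0.23, and none was called. Of 4 endothelial genes, 1 was called higher, the growth factor receptor *Kdr* (0.42), and their median was 0.06. What part the denervation, slow fibre, heart, adipocyte or endothelial genes have in the *Scn3b* ratio was not tested.

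**Figure D5:**
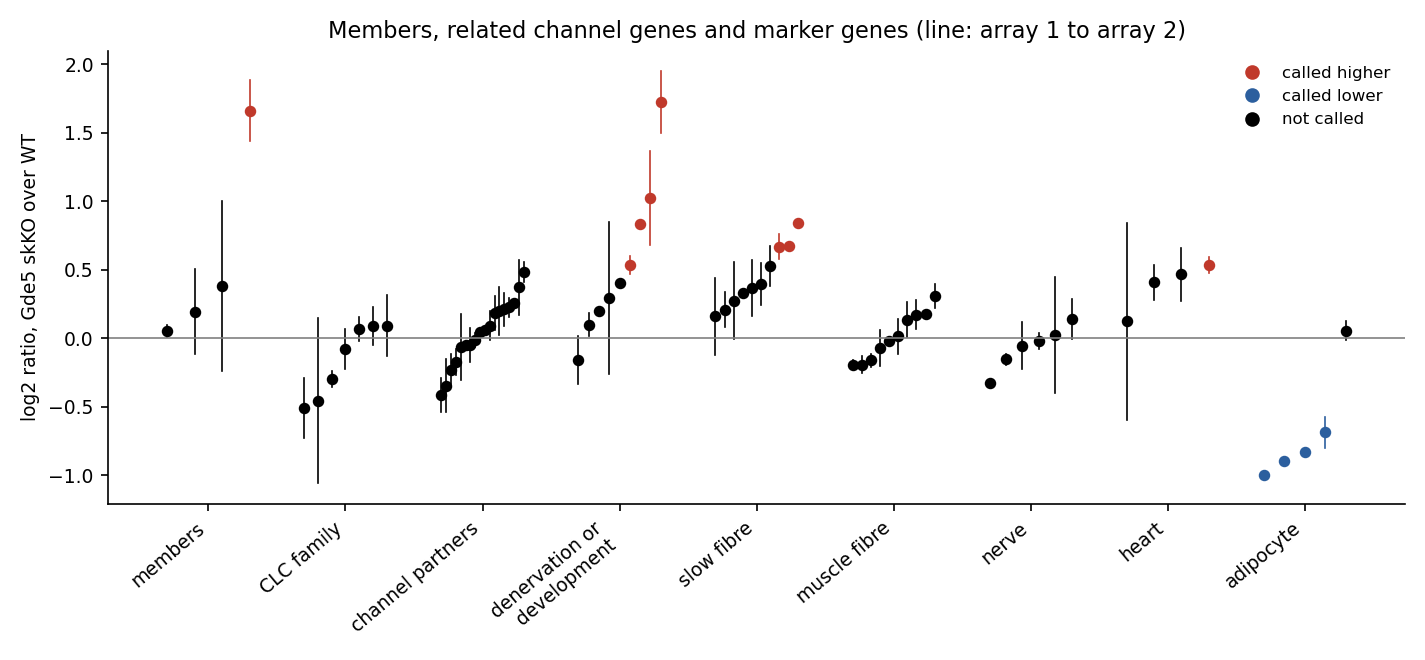
Mean log2 ratio (points) of the 4 measured members and of the genes of 8 lists that passed the filter, with lines from the array 1 to the array 2 value, red where called higher, blue where called lower and black where not called. Of the genes that passed, 4 of 9 denervation or development, 3 of 10 slow fibre and 1 of 4 heart genes were called higher. Lower calls went to 4 of 5 adipocyte genes, and no related channel or partner gene was called. Over all genes tested, 1.58% were called higher and 1.73% lower.

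Around the other members, 13 probes of neighbouring genes within 100 kb passed the filter, 8 by *Scn4a*, 2 by *Scn2b* and 3 by *Clcn1*, and 0 were called, with mean log2 ratios from -0.48 to 0.28. The RefSeq (GRCm38.p6) promoters used here had no sequence for *Scn3b*. For the other 4 members they ran from 250 bases before to 50 after the start site. The letters CAGCTG, a form of E-box that myogenic factors bind, were in none of these 4 sequences and in 16.3% of all 32851 promoters of that length. The general E-box CANNTG, which includes CAGCTG and reads the same on both strands, occurred 3 times in each of the *Clcn1* and *Scn2b* promoters and not in those of *Scn4a* and *Scn4b*. Over all promoters, 72.3% held it. These counts describe letters in a short window and not binding.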

How the data were processed

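The authors scanned 44K whole mouse genome arrays and deposited 1 file per array, which gives every spot a log10 ratio (Cy5 over Cy3) and a p-value from the error model of Agilent Feature Extraction (9.5 per the labels, 9.5.3.1 per the file headers). The deposited files also hold the intensity of each spot and of its local background, with software marks and errors. The deposited series table holds the same log10 ratios to fewer digits, within 0.0044 of the files, with the swapped array not turned. The arrays share 1 slide and 1 scan.

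Here the ratio of *Gde5* skKO to WT was taken on the log2 scale, and spots with the same probe were averaged. Control spots, outlier spots (164 and 200 of 43379) and spots beside debris (7 and 0, local background over 2 times the signal) were left out. Of 41112 probes, 33042 were named through RefSeq. The members, lists and alternatives were chosen with earlier results of these data known. Some related genes are not reported here. The others are named where called or as examples chosen after their values were seen. With 2 arrays, the precision of each ratio is limited by their number. Alternatives used limma 3.58.1 in R 4.3.3 (normexp offset 50). Other steps used Python 3.11.15, pandas 2.3.3 and scipy 1.17.1.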

Additional observations from a re-analysis of the deposited data

How the results depend on the processing

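*Scn3b* was the single member called higher, and no member was called lower, under each alternative run other than 2. With all probes of a gene averaged, 0 members were called higher, because the dim *Scn3b* probes enter the mean and the p-value. With neither array turned, so that ratios follow the dye, 0 were called higher. A gene called with the arrays turned cannot be called in this way, so this setting says nothing about *Scn3b*. The calls of the other family genes, 0 under the main setting, varied more. With each array left out in turn there were 2 (*Celf2* and *Fgf11*, without array 1) to 3 (*Clcn6*, *Dmd* and *Hnrnpa1*, without array 2), when 13.9% and 12.1% of all genes were called. Without adjustment, limma's moderated test called 5 (*Ank3* and *Fgf11* higher, *Celf2*, *Clcn3* and *Dmd* lower), when it called 8.52% of all genes, and 0 with Benjamini-Hochberg adjustment, when it called 0.803% of all genes. An alternative chosen after seeing the data, the mean over the probes that passed the filter, called 1, *Sptbn1*, when 2.82% of all genes were called. No slide or scan block was run, since both arrays share 1 slide and 1 scan. Each ratio already pairs both genotypes within an array, so no further pairing was fitted.

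Outside the dye direction, the mean log2 ratio of *Scn3b* was lowest at 0.61 over all probes and highest at 1.88 without array 2. *Scn2b* was well above background in 2 of 4 channels, and the errors of its ratios and those of *Clcn1* were larger than those of *Scn4a*.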
